A study of Mus musculus with 7 samples.

Results

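Among 51115 nuclei sequenced from the posterolateral cortical amygdala (plCoA) of the mouse, 557 formed a set of glutamatergic neurons that carried RNA of at least 2 of the genes Vwa5b1, Glra1 and Baiap3. They were chosen from the counts of these genes. A nucleus was called glutamatergic when Slc17a7 and Slc17a6, the genes of the vesicular glutamate transporters VGluT1 and VGluT2, gave at least 2 UMIs in sum and Gad1 and Gad2, the genes of the enzymes that make GABA, gave at most 1. A UMI is a molecular tag that marks 1 captured RNA molecule. Of the 16248 glutamatergic nuclei, a member had at least 3 UMIs of Vwa5b1, Glra1 and Baiap3 in sum, at least 2 of these genes detected, and at most 1 UMI of Meis1. The other 15691 glutamatergic nuclei served for comparison.

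The plCoA is an olfactory part of the amygdala that lies at the surface of the brain and receives input from the olfactory bulb. Its excitatory neurons are of mixed kinds, and VGluT1 is typical of neurons of cortical areas while VGluT2 is typical of many subcortical and medial amygdala neurons. Glra1 encodes the alpha 1 subunit of the inhibitory glycine receptor, a chloride channel best known from the spinal cord and brainstem. Baiap3 encodes a protein of the Munc13 family that acts in dense-core vesicle traffic, and Vwa5b1 encodes a protein with a von Willebrand factor A domain whose function in neurons is little known. In the mm10 build, GENCODE vM21 places the protein-coding gene Vwa5b1 at chr4:138565360-138635884, Glra1 at chr11:55514238-55608198 and Baiap3 at chr17:25242659-25256364, all on the minus strand.

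Nuclei came from male C57BL6J mice of 8 weeks, for which the labels name no treatment, and each library held tissue pooled from several animals. The paper states that the mice were housed singly under sensory deprivation for the last day, to limit immediate early gene expression. The anterior domain (aplCoA) was sampled in 3 biological replicates, the first of which was sequenced in 2 libraries that were summed here, and the posterior domain (pplCoA) in 3. The droplet libraries count the 3′ ends of polyadenylated RNA, and total UMIs per library ranged from 50812605 to 129624583. Members had a median of 12155 UMIs and 4047 genes per nucleus, against 13661 UMIs and 4032 genes in the other glutamatergic nuclei. Each of the 21 pairs of libraries shared between 5 and 36 barcodes, and no barcode was that of a member in both libraries of a pair. Replicates are pools from the same strain, so p-values measure the spread between pools.

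The members were unequally spread over the replicates. There were 306, 62 and 90 in the aplCoA replicates and 84, 8 and 7 in the pplCoA replicates. They made up 5.86%, 5.10% and 3.25% of the glutamatergic nuclei in aplCoA. In pplCoA, they made up 2.65%, 0.398% and 0.375%. The 95% Wilson intervals, which cover counting error only, ran from 2.65% to 3.98% in aplCoA replicate 3 and from 2.15% to 3.27% in pplCoA replicate 1, so that these neighbours overlapped within counting error. The highest pplCoA replicate lay below the lowest aplCoA replicate.

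The mean share was 4.74% ± 1.34 for the aplCoA replicates and 1.14% ± 1.31 for those of pplCoA (SD over 3 replicates each). The means lay 3.59 percentage points apart, with a ratio of 4.15. The exact two-sided permutation test gave p = 0.1, the smallest value that 3 replicates against 3 allow. Since Vwa5b1 and Glra1 are sparse, the rule was also applied at an equal depth. Nuclei with at least 5000 UMIs were thinned to 5000, and the limits for glutamatergic nuclei were applied again. Fewer nuclei passed them, 2501 in aplCoA replicate 1 against 5224 before. The shares were then 1.30% in aplCoA and 0.318% in pplCoA, with 66, 1 and 13 members against 11, 2 and 0, the replicates overlapped, and the exact permutation p was 0.3.

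The 15 members of pplCoA replicates 2 and 3 stood apart from the other 542. Glutamatergic nuclei were placed in a space of 50 principal components built without the genes of the rule and grouped by the Leiden method into 28 clusters. Cluster 9 held 881 nuclei, 88.8% of them from aplCoA, and 380 members, which were 68.2% of all members. The remaining members were spread so that 19 clusters held at least 1. Cluster 9 took 76.1%, 56.5% and 71.1% of the members in the aplCoA replicates and 57.1% in pplCoA replicate 1, and it took none of the 8 and none of the 7 in the other pplCoA replicates.

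Of the 15 nearest neighbours of a member, 47.4%, 38.4% and 47.3% were members in the aplCoA replicates and 38.6% in pplCoA replicate 1, against 5.83% and 1.90% in pplCoA replicates 2 and 3. Members were 3.43% of all glutamatergic nuclei. Counted only among neighbours from other replicates, the values were 44.2%, 37.0%, 50.1%, 37.5%, 5.83% and 4.76% in the same order. The genes of the rule had no part in this space, but genes that vary with them did, and so the values describe the members and are not tested. Levels were therefore described over all 6 replicates and over the 4 with over 50 members.

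**Figure D1:**
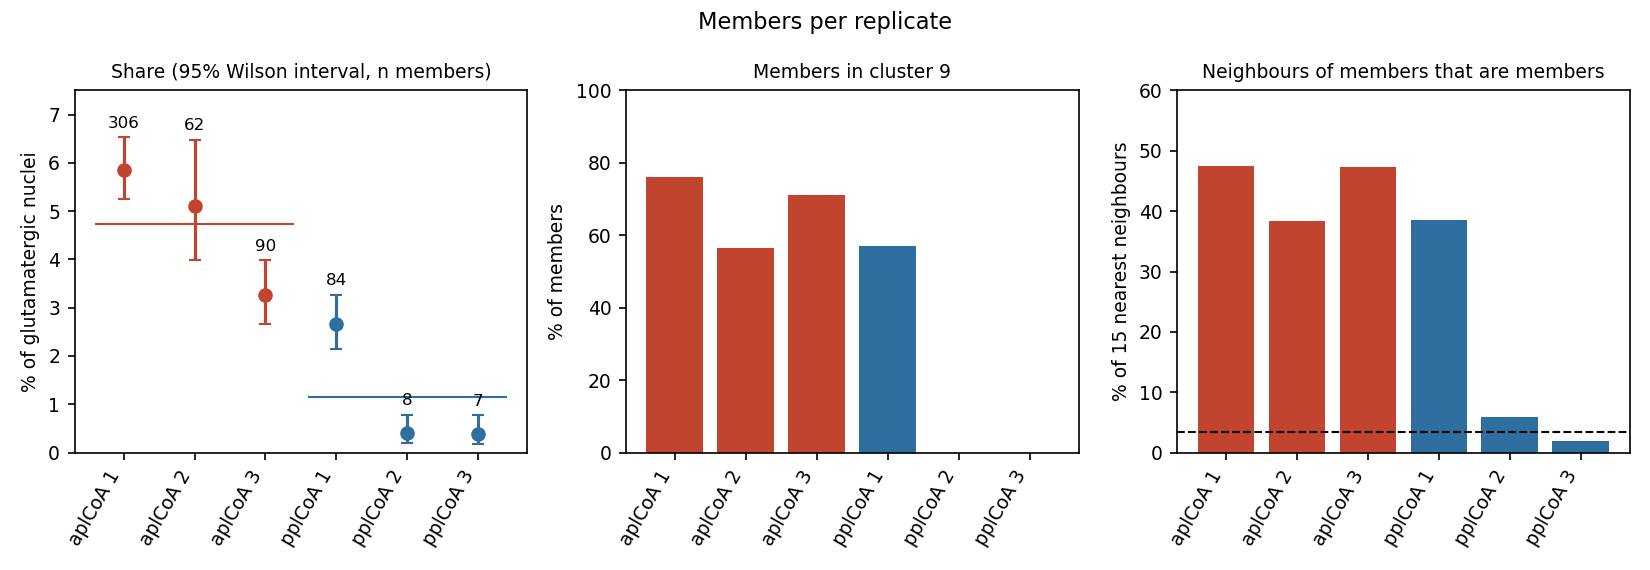
Members in each replicate of aplCoA (red) and pplCoA (blue). Left, share of glutamatergic nuclei in percent, with 95% Wilson intervals, the number of members and the mean of each domain as a line. Middle, percent of members that fell in cluster 9. Right, percent of the 15 nearest neighbours of members that were members, with the share of members among all glutamatergic nuclei (3.43%) dashed. pplCoA replicate 1 resembles the aplCoA replicates in the middle and right panels, and the 15 members of pplCoA replicates 2 and 3 do not.

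Cluster 9 was picked because it held the most members, and most members came from aplCoA, so that its share in each replicate is a description and no second count of the difference. The cluster took 10.2%, 6.83% and 6.07% of the glutamatergic nuclei in the aplCoA replicates and 2.78%, 0.249% and 0.322% in the pplCoA replicates, with means of 7.69% ± 2.18 and 1.12% ± 1.44 (SD, n = 3 each). Of its nuclei, 501 were not members. Levels are given in CPM, the UMIs of a gene in a sum of nuclei scaled to the same total for every sum. Those had 28.7 CPM of Vwa5b1, 14.7 CPM of Glra1 and 95.6 CPM of Baiap3, above the 2.00, 2.98 and 26.9 CPM of the non-member nuclei of the other clusters. Gulp1, Zbtb7c and Sema5a, which the rule did not use, stood at 183, 202 and 182 CPM in these 501 nuclei, at 174, 346 and 248 CPM in the members of cluster 9 and at 49.5, 160.5 and 148 CPM in the members outside it. The other glutamatergic nuclei thus include nuclei that lie beside the members, and Gulp1 was as high in them.

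The members differed in which of the 3 genes was seen. Vwa5b1 with Baiap3 was found in 276, all 3 in 151, Glra1 with Baiap3 in 105 and Vwa5b1 with Glra1 in 25. Members with a sum of exactly 3 numbered 161, those with 4 numbered 119, those with 5 numbered 80 and those with 6 or more numbered 197. Just inside the threshold, nuclei with a sum of 3 had 102 CPM of Gulp1 and 121 CPM of Slc17a6, while those with 6 or more had 142 and 160.1 CPM. Just outside it, the 163 nuclei with 1 UMI of each of 2 of the genes had 68.1 CPM of Gulp1 and 91.6 CPM of Slc17a6. A further 432 nuclei had a sum of 3 or more from a single gene, mostly Baiap3 at 227 CPM, and 51.4 CPM of Gulp1. The limit on Meis1 left out 109 nuclei that met the rest of the rule, 100 of them from aplCoA.

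The genes that chose the members are given as a description. In CPM of the summed members of each replicate, Vwa5b1 stood at 136, 103 and 119 in aplCoA and at 137, 122 and 80.4 in pplCoA, against 1.32 to 3.96 in the other glutamatergic nuclei. Glra1 stood at 69.3, 69.2 and 72.6 in aplCoA and at 44.4, 21.5 and 0 in pplCoA. The last value rests on 7 nuclei, which were chosen by Vwa5b1 and Baiap3. Baiap3 stood at 240.4, 144 and 158 in aplCoA and at 162, 93.0 and 161 in pplCoA.

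Background from free RNA was judged in 3797 microglia-like nuclei, which should lack these genes and had a median of 3231 UMIs. Vwa5b1 was seen in 81.1% of members, 2.93% of the other glutamatergic nuclei and 0.316% of microglia-like nuclei, and Glra1 in 50.4%, 3.47% and 0.263%. Baiap3 was seen in 95.5%, 24.1% and 1.40%. Baiap3 was thus common among glutamatergic neurons at a lower level, while the low shares of Vwa5b1 and Glra1 in the other glutamatergic nuclei follow in part from the rule, which took nuclei with these genes as members. Among the 501 other nuclei of cluster 9, 20.4% held Vwa5b1 and 11.8% held Glra1.

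Gulp1, the gene of an adaptor protein for the engulfment of cells that lies at chr1:44551511-44796838, was not used to choose these nuclei. It is not particular to the members, since it was seen in 61.7% of the non-member nuclei of cluster 9 and in 65.5% of the members there. Gulp1 stood at 148, 109 and 137 CPM in aplCoA members, at 104 CPM in pplCoA replicate 1 and at 0 in pplCoA replicates 2 and 3. The other glutamatergic nuclei ranged from 8.02 to 32.7 CPM. Over the 4 replicates with over 50 members the log2 ratio of members to the others was 2.29 ± 0.44 (SD, n = 4), and over all 6 it was 0.42 ± 2.92 (SD, n = 6). A value of 0 is weak evidence in the small replicates, where 3 UMIs are worth 21.5 and 30.1 CPM. Gulp1 was seen in 305 of the 557 members, and in 54.8% of members against 13.5% of the other glutamatergic nuclei and 2.26% of microglia-like nuclei.

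**Figure D2:**
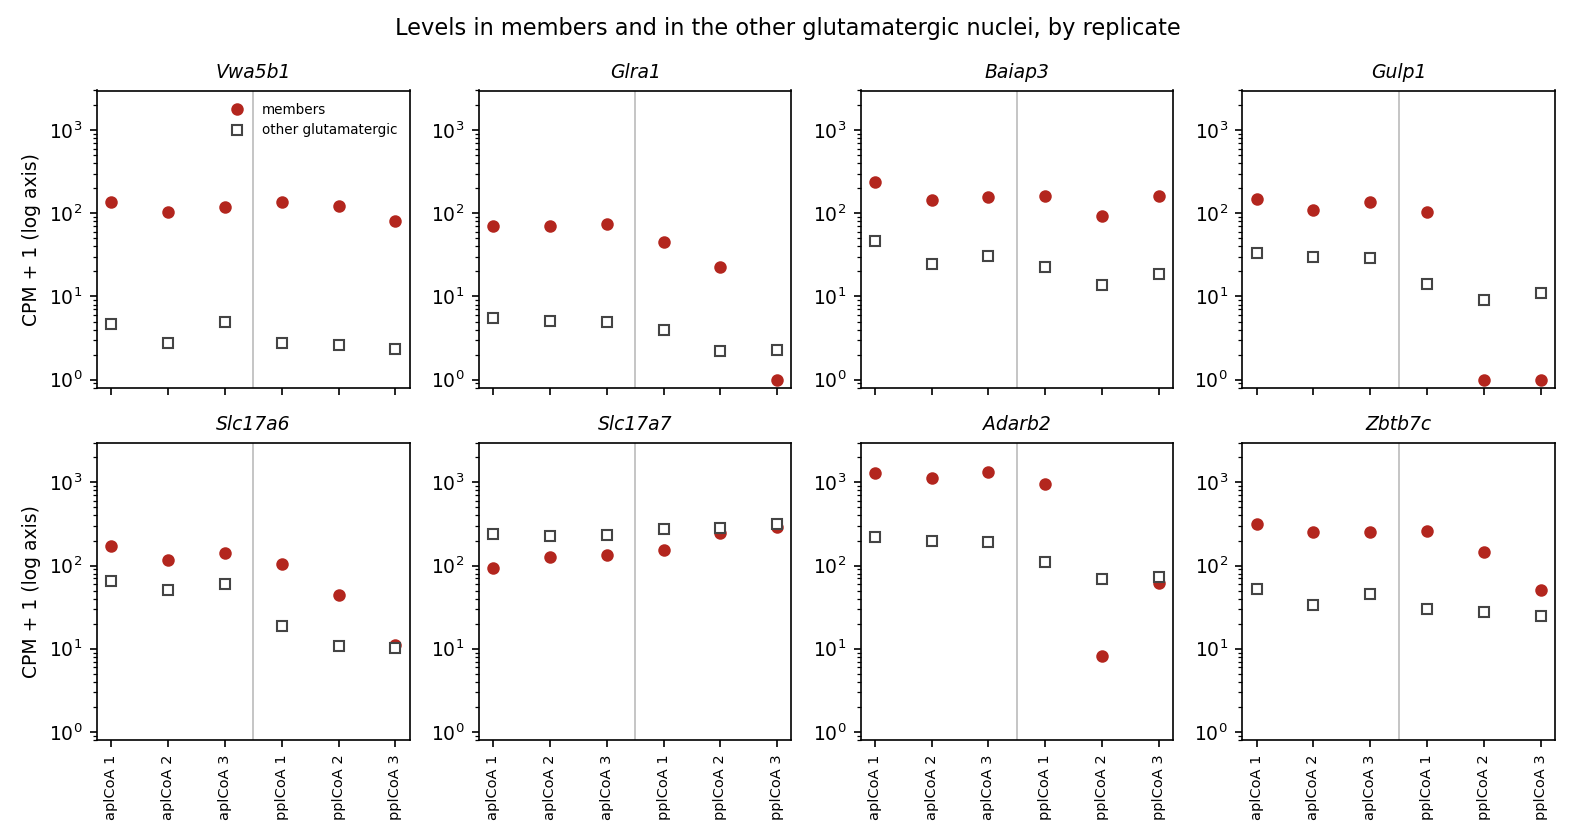
Level of 8 genes in members (filled) and in the other glutamatergic nuclei (open) of each replicate, in CPM + 1 on a log axis, with aplCoA left and pplCoA right of the line. Gulp1, Adarb2 and Zbtb7c took no part in the rule. In the aplCoA replicates and pplCoA replicate 1 members are above the others in every panel but that of Slc17a7, where they are below.

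The members held more Slc17a6 and less Slc17a7 than the other glutamatergic nuclei of their replicate, in 6 of 6 replicates. Slc17a6 stood at 169, 114 and 142 CPM in aplCoA members and at 104, 42.9 and 10.0 CPM in pplCoA members, against 64.3 CPM or less in the others of aplCoA and 9.13 to 18.0 CPM in those of pplCoA. The Slc17a6 value of pplCoA replicate 3 is 1 UMI, so that its direction there is weak evidence. Slc17a7 ran the other way, at 92.5, 124 and 132 CPM in aplCoA members and at 152, 243 and 291 CPM in pplCoA members, while the others lay between 227 and 315 CPM. Both transporters were seen in 288 members, Slc17a6 alone in 174 and Slc17a7 alone in 95. In members, Slc17a7 exceeded Slc17a6 in 4 of 6 replicates, all but aplCoA replicates 1 and 3. The sum of the transporters was part of the rule, their balance was not.

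By replicate, Slc17a6 alone was seen in 37.9%, 25.8% and 27.8% of aplCoA members and in 20.2%, 0% and 0% of pplCoA members, and Slc17a7 alone in 12.1%, 22.6% and 12.2% and in 26.2%, 62.5% and 85.7%. Among the other glutamatergic nuclei Slc17a6 was seen alone in 11.3% to 16.0% in aplCoA and in 0.592% to 2.89% in pplCoA, and Slc17a7 alone in 61.4% to 69.2% and in 83.6% to 90.9%. After thinning to 5000 UMIs, 34.7% of 554 members and 9.58% of 15260 other nuclei held Slc17a6 alone, and 26.5% and 65.1% held Slc17a7 alone. The members without Slc17a6 had less Gulp1 (58.0 CPM) and Pbx3 (44.4 CPM) than those without Slc17a7 (158 and 176 CPM). Slc17a8, the gene of VGluT3, was at 0.272 CPM in members and 0.252 CPM in the others, pooled over replicates, below the 0.346 CPM of microglia-like nuclei.

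Of 9432 genes outside the rule that reached 10 CPM in members or others, 104 (1.1%) were higher in the members in 6 of 6 replicates with a mean log2 ratio of at least 1, and 161 (1.71%) were lower in 6 of 6 with a mean of -1 or less. These are ratios of CPM with 1 CPM added, compared within each replicate, and they carry no test, since the same nuclei were chosen by their RNA. In the 4 replicates with over 50 members, 294 (3.1%) of 9497 genes were higher and 196 (2.06%) lower by the same measure. The choice of these 4 replicates was made after seeing the data. A gene that reached 10 CPM only in the members had to be higher there, and one that reached it only in the others had to be lower, so that counts and medians that hold such genes are given as a description.

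Genes outside the rule with at least 30 CPM in members and the same direction in 6 of 6 replicates were ranked by mean ratio. Symbols starting with Gm or ending in Rik were left out. Zbtb7c, a zinc finger transcriptional regulator, ranked first (log2 ratio 2.43 ± 0.73, SD, n = 6). It stood at 311, 254 and 254 CPM in aplCoA members and 261, 143 and 50.2 CPM in pplCoA members, against 23.5 to 50.6 CPM in the others. Rerg, a Ras-like GTPase gene that responds to estrogen, stood at 104, 99.2 and 93.6 CPM in aplCoA and at 70.3, 21.5 and 100.5 CPM in pplCoA, against 8.52 to 20.8 CPM (2.31 ± 0.71). Sema5a, which encodes a membrane-bound semaphorin that guides axons, was even over the replicates, at 234, 190.4 and 189.6 CPM and at 188, 179 and 201 CPM, against 31.4 to 67.8 CPM (1.96 ± 0.33). Sema5a was high also in the 15 members of pplCoA replicates 2 and 3, unlike Gulp1.

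The other 12 of the 15 highest had log2 ratios between 1.43 and 1.92. They included genes of the synaptic vesicle glycoprotein Sv2c (1.86 ± 0.64), the actin regulator Nhs (1.85 ± 0.49), the kinesin Kif26b (1.78 ± 0.55), the Rac GTPase-activating protein Arhgap24 (1.77 ± 0.32) and the slit and robo partner Srgap1 (1.44 ± 0.24). A pair of secreted metalloproteases were among them, Adamts2 (1.73 ± 0.40) and Adamts18 (1.57 ± 0.59), with the lipid transfer protein gene Esyt3 (1.56 ± 0.71). Btbd11, Gramd1c and Siae stood at 7.16, 7.16 and 21.5 CPM in pplCoA replicate 2, where 1 UMI is worth 7.16 CPM. Gramd1c was at 80.4 CPM in pplCoA replicate 3, against 18.0 to 26.8 CPM in the 4 larger replicates, and its log2 ratio of 1.51 was 1.14 without that replicate. The means of Btbd11 and Gramd1c over the 6 replicates reached 10 CPM only in the members. Zfp804b, a zinc finger gene, was the most abundant of the 15, at 1014 to 1246 CPM in the 4 larger replicates.

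**Figure D3:**
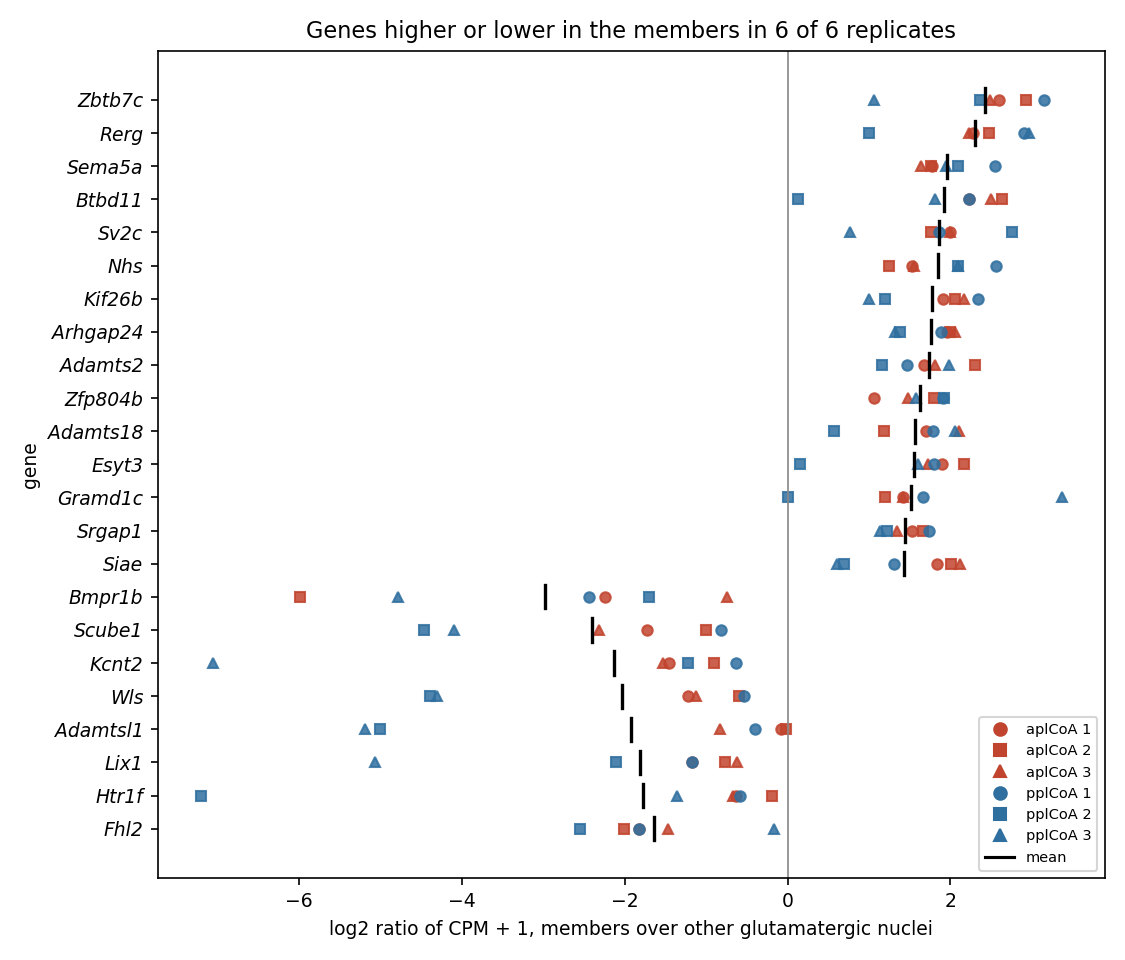
Log2 ratio of CPM + 1 in members over the other glutamatergic nuclei for the 15 highest and 8 lowest genes with the same direction in 6 of 6 replicates. Genes had a mean of at least 30 CPM, in the members for the highest and in the others for the lowest. Genes of the rule and symbols starting with Gm or ending in Rik were left out. Each point is 1 replicate (red aplCoA, blue pplCoA, shape by number) and the black bar is the mean of 6. The points farthest left are replicates in which the gene was not counted in the members.

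Of the 8 lowest genes, Bmpr1b, which encodes a bone morphogenetic protein receptor, was at 8.70, 0 and 21.8 CPM in aplCoA members and at 2.51, 7.16 and 0 CPM in pplCoA members, against 18.1 to 62.4 CPM in the others. Fhl2, the gene of a LIM domain protein, was at 11.1, 9.02 and 16.1 CPM in aplCoA and at 13.4, 7.16 and 40.2 CPM in pplCoA, against 39.3 to 49.8 CPM. Kcnt2, a sodium-activated potassium channel gene, was at 60.9, 102 and 70.2 CPM and at 116, 57.2 and 0 CPM, against 132 to 205 CPM. Adamtsl1, Htr1f, Wls and Lix1 were not counted in the members of pplCoA replicate 2, 3 or both, and over the other 4 the log2 ratios were -0.33, -0.52, -0.87 and -0.93. Scube1 was -1.47 ± 0.68 (SD, n = 4) over the same 4.

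Further genes were high over the 4 larger replicates. Prlr, the prolactin receptor gene, stood at 70.4, 45.1 and 58.1 CPM in aplCoA members and at 51.9 CPM in pplCoA replicate 1, against 2.38 to 10.1 CPM in the others of these replicates (log2 ratio 3.02 ± 0.64, SD, n = 4, and 1.54 ± 2.35 over all 6). Its mean reached 10 CPM only in the members, being 6.63 CPM in the others, so that it had to be higher in the members. Adarb2, which encodes a brain member of the RNA editing enzyme family and is best known as a marker of some cortical interneurons, stood at 1313, 1142, 1340.3 and 959 CPM against 110.2 to 219.9 CPM (2.75 ± 0.27, and 1.28 ± 2.46 over all 6). In pplCoA replicates 2 and 3 Prlr was not counted and Adarb2 was at 7.16 and 60.3 CPM. The Adarb2 values of these 15 members lay below those of the other glutamatergic nuclei of the same replicates.

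Zim1, an imprinted zinc finger gene, had a log2 ratio of 2.89 ± 0.42 (SD, n = 4), and Kcnip1, the gene of a potassium channel interacting protein, one of 2.29 ± 0.67. The adhesion gene Sdk1 (2.12 ± 0.69), the splicing regulator gene Nova1 (2.03 ± 0.24), the presynaptic gene Rims3 (2.08 ± 0.58), and Stac2 (2.05 ± 0.12), Cfap46 (2.32 ± 0.25) and Lemd1 (2.02 ± 0.30) followed. The means of Zim1, Stac2, Cfap46 and Lemd1 reached 10 CPM only in the members, so that these genes had to be higher there. The log2 ratios of Zim1, Kcnip1, Sdk1 and Nova1 over all 6 replicates were 1.88 ± 2.11, 0.74 ± 2.46, 1.55 ± 1.10 and 1.10 ± 1.59, and those of Rims3, Stac2, Cfap46 and Lemd1 were 1.26 ± 1.75, 1.90 ± 0.29, 1.84 ± 0.86 and 1.42 ± 1.23. Genes lowest over the 4 larger replicates were Bmpr1b, Crispld1 (-2.72 ± 0.77), Trabd2b (-2.31 ± 1.12), Tanc1 (-2.11 ± 0.52), Csgalnact1 (-1.99 ± 0.43), Palmd (-1.88 ± 0.24), Pdzrn3 (-1.78 ± 0.16) and Fhl2 (-1.78 ± 0.23). The means of Bmpr1b and Crispld1 over these replicates reached 10 CPM only in the others. Crispld1 and Trabd2b turned over in pplCoA replicates 2 and 3, with 42.9 and 50.2 CPM of Crispld1 and 279 and 332 CPM of Trabd2b in the members there.

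Genes of inhibitory glycine signalling beyond Glra1 were described in turn. Glra2, the alpha 2 subunit gene, stood at 71.2, 55.1 and 67.8 CPM in aplCoA members and at 56.9 CPM in pplCoA replicate 1, against 21.2 to 33.2 CPM in the others (1.20 ± 0.24, SD, n = 4), and at 0 in pplCoA replicates 2 and 3 (-0.65 ± 2.88 over all 6). Glra3, the alpha 3 subunit gene, stood at 168, 80.2 and 148 CPM in aplCoA members and at 144, 107 and 121 CPM in pplCoA members, against 66.5 to 95.8 CPM in the others, and was higher in 5 of 6 replicates, all but aplCoA replicate 2 (0.65 ± 0.42, SD, n = 6). Glrb, the beta subunit gene that anchors the receptor, was near equal, at 128 ± 9.53 CPM in members (SD, n = 4) and 111 to 128 CPM in the others of these replicates. Gphn, the gene of the scaffold gephyrin, stood at 785 ± 24.4 CPM against 658 ± 32.0 CPM in the others (SD, n = 4 each). Slc6a5, the transporter of glycinergic neurons, had no UMI in 557 members. Of 4 genes of the group outside the rule that reached 10 CPM, 1 was counted as higher over the 4 replicates and none as lower, where 3.1% of all genes were higher and 2.06% lower, with a median log2 ratio of 0.44 against 0.11 over all genes described. None was counted in either direction over all 6 replicates, where the median was 0.04.

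Baiap3 has relatives that prime vesicles for release. Of 26 genes of vesicle priming and exocytosis outside the rule, 4 were counted as higher over the 4 replicates (Rims3, Sv2c, Unc13c and Cadps2) and 1 as lower (Syt7), with a median log2 ratio of 0.18, where 3.1% of all genes were higher and 2.06% lower. Only Sv2c was counted, as higher, over all 6 replicates, with a median of -0.05. Unc13c, the Munc13-3 gene, stood at 664, 489 and 596 CPM in aplCoA members and at 460.4 CPM in pplCoA replicate 1, against 98.4 to 224.7 CPM in the others (1.71 ± 0.37, SD, n = 4, and 1.22 ± 0.82 over all 6). In pplCoA replicates 2 and 3 it was at 114 and 60.3 CPM, near the 78.2 and 61.8 CPM of the others. Cadps2, which acts in dense-core vesicle release, stood at 372 to 472 CPM in the larger replicates (1.43 ± 0.20, and 0.58 ± 1.34 over all 6), and Syt7, a slow calcium sensor of release, at 95.4 ± 18.0 CPM against 219 ± 20.2 CPM (-1.20 ± 0.18, and -0.60 ± 0.94 over all 6).

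Of 26 transcription factors typical of cortical projection neurons, 8 were counted as lower over the 4 replicates, among them Foxp2, Bcl11b, Nfib, Lhx2, Zbtb20, Mef2c and Lmo3, and 1 as higher (Tshz2), against 2.06% lower and 3.1% higher over all genes, with a median log2 ratio of -0.64. Over all 6 replicates 6 were lower and none higher, with a median of -0.65. Bcl11b, a factor of corticofugal neurons, stood at 40.2, 50.1, 47.6 and 68.6 CPM against 132 to 175 CPM (-1.54 ± 0.22), and at 122 and 191 CPM in pplCoA replicates 2 and 3. Tshz2 stood at 597 to 637 CPM in the 4 replicates against 91.9 to 253 CPM. In pplCoA replicates 2 and 3 it was at 515 and 20.1 CPM, against 50.4 and 48.2 CPM in the others.

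Of 13 factors typical of subcortical neurons that reached 10 CPM in those replicates, Nr2f2 and Lhx9 were counted as higher and Meis2 as lower, with a median of 0.01, where 3.1% of all genes were higher and 2.06% lower. With all 6 replicates, 1 of 12 was higher (Nr2f2) and 1 lower (Meis2), with a median of 0.01, against 1.1% and 1.71% of all genes. Nr2f2 (COUP-TFII), a factor of caudal and medial amygdala regions, was even over all 6 replicates, at 157, 121 and 132 CPM in aplCoA members and at 146, 114 and 111 CPM in pplCoA members, against 48.2 to 65.9 CPM. Lhx9, a factor of amygdala excitatory neurons, was low, at 5.01 to 13.4 CPM, and its mean reached 10 CPM only in the members, so that it had to be higher. Meis2 stood at 54.4 to 110.2 CPM in the larger replicates against 114 to 361 CPM in the others, a relative of Meis1, whose upper limit was part of the rule.

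Of 13 peptide genes that reached 10 CPM, 5 were counted as higher over the 4 replicates (Adcyap1, Scg2, Tac1, Penk and Pam) and none as lower, where 3.1% of all genes were higher, with a median log2 ratio of 0.84. Of the 5, Adcyap1, Penk and Tac1 reached 10 CPM only in the members, so that the count and the median are not read as a result about the list. Over all 6 replicates 1 of 12 was higher (Scg2), against 1.1% of all genes, and none lower, with a median of 0.28. Adcyap1, which encodes the peptide PACAP, stood at 28.0, 19.0 and 19.4 CPM in aplCoA members and at 10.9 CPM in pplCoA replicate 1, against at most 4.61 CPM in the others (2.17 ± 0.26, SD, n = 4, and 1.14 ± 1.61 over all 6). Scg2, a secretogranin gene of dense-core vesicles, stood at 137, 86.2, 98.4 and 49.4 CPM in the same replicates (1.47 ± 0.18), and Pam, the enzyme that amidates peptides, at 329 to 374 CPM (1.03 ± 0.25). Penk, the enkephalin gene, and Tac1, the substance P gene, were low, at 18.9 ± 12.0 and 10.0 ± 5.64 CPM.

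Among receptors of peptides, Galr1, a galanin receptor gene, was higher in members of 6 of 6 replicates, at 17.9, 17.0 and 18.6 CPM in aplCoA and at 12.6, 7.16 and 10.0 CPM in pplCoA, against 0.594 to 1.74 CPM in the others (2.88 ± 0.42, SD, n = 6). Its values in pplCoA replicates 2 and 3 are 1 UMI each, and it reached 10 CPM only in the members. Galr1 was seen in 14.7% of members, 1.33% of the other glutamatergic nuclei and 0.0790% of microglia-like nuclei. Of 13 peptide receptor genes described over the 4 replicates, Galr1 was the only one higher and Tacr1, a substance P receptor gene (-1.44 ± 0.96), the only one lower, with a median of -0.13. Of 17 over all 6 replicates, Galr1 and Npy2r, a neuropeptide Y receptor gene (1.11 ± 0.43) that also reached 10 CPM only in the members, were higher and none lower, with a median of -0.22. Among all genes, 3.1% were higher and 2.06% lower over the 4 replicates, and 1.1% and 1.71% over all 6. The genes counted as higher passed the filter only through the members, so that the counts are not read as a result about the list.

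Of 13 genes in a list of monoamine and acetylcholine receptors that also held the cannabinoid receptor gene Cnr1, Htr2c and Htr1b were counted as higher over the 4 replicates and Cnr1 as lower, which leaves no monoamine or acetylcholine receptor gene counted as lower there, with a median of -0.44, where 3.1% of all genes were higher and 2.06% lower. With all 6 replicates, 1 of 13 was higher (Adra1a) and 3 were lower (Chrm3, Htr1f and Htr7), with a median of -0.31, against 1.1% and 1.71% of all genes. Htr2c, a serotonin receptor gene, stood at 571, 326 and 511 CPM in aplCoA members and at 434, 114 and 10.0 CPM in pplCoA members, against 57.3 to 187 CPM.

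**Figure D4:**
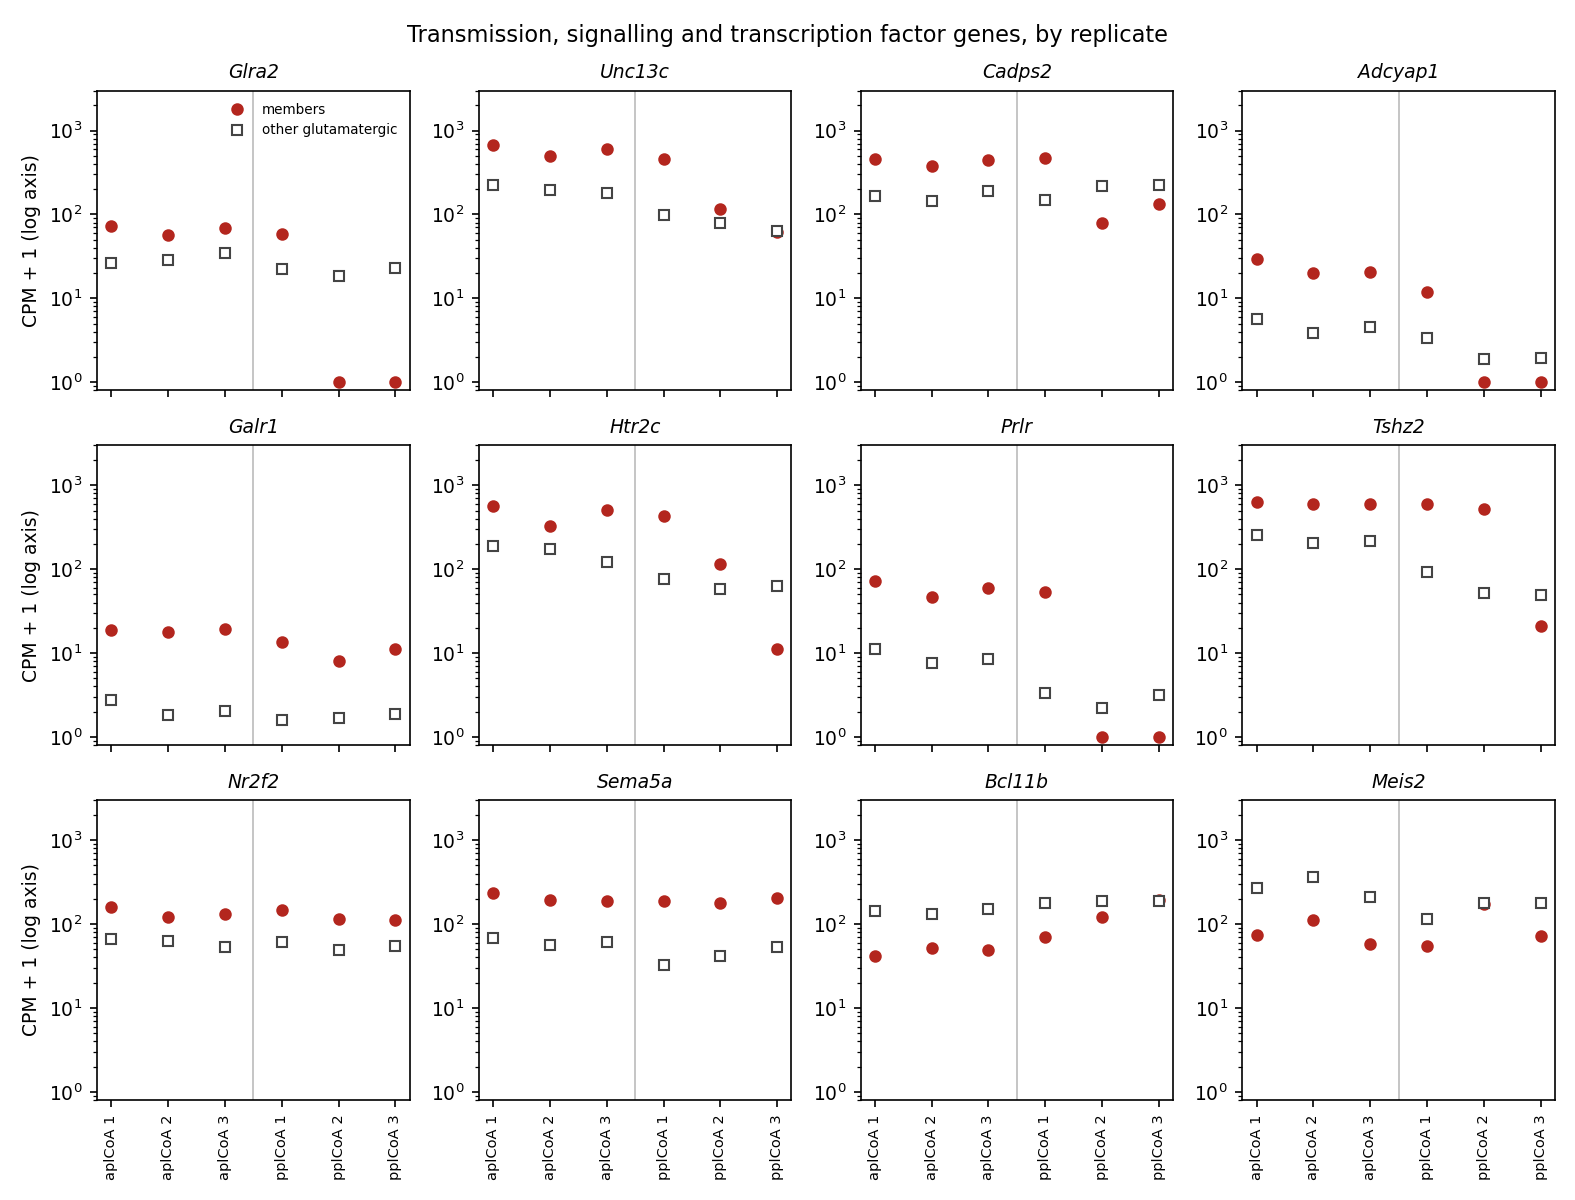
Level of 12 genes outside the rule in members (filled) and in the other glutamatergic nuclei (open) of each replicate, in CPM + 1 on a log axis, with aplCoA left and pplCoA right of the line. Galr1, Nr2f2 and Sema5a are above the others in 6 of 6 replicates. Glra2, Adcyap1 and Prlr are above in the first 4 and not counted in pplCoA replicates 2 and 3.

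Ion channel and receptor subunit genes had medians near 0. The median log2 ratio over the 4 replicates was 0.10 for 21 glutamate receptor genes, with Grik4 (1.59 ± 0.27) and Grm8 (1.32 ± 0.26) among the higher, and -0.0026 for 14 GABA-A receptor genes, of which Gabrg3 (1.13 ± 0.15) was higher and Gabrd (-1.34 ± 0.09) lower. It was 0.04 for 33 potassium channel genes, with Kcnip1 and Kctd8 (1.34 ± 0.45) higher and Kcnt2 lower, and 0.01 for 27 sodium, calcium, HCN and TRP channel genes, with Trpc7 (1.53 ± 0.67) and the T-type calcium channel gene Cacna1g (1.36 ± 0.12) higher. Over all 6 replicates 1 glutamate receptor gene was higher, 1 GABA-A receptor gene higher and 1 lower, and 1 gene of each of the other 2 groups lower. Over all genes 3.1% were higher and 2.06% lower over the 4 replicates, and 1.1% and 1.71% over all 6. Of 12 calcium-binding protein genes, Calb2 and Rcn1 were counted as higher over the 4 replicates and Cabp1 (-1.20 ± 0.21) as lower, and over all 6 none was higher and Cabp1 lower. Calb2, the calretinin gene, reached 10 CPM only in the members, as did Rcn1. Calb2 stood at 20.7, 21.0, 17.8 and 4.19 CPM in the 4 replicates (2.10 ± 0.81), and it was at 0 in pplCoA replicates 2 and 3 (0.84 ± 2.06 over all 6).

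Genes of cell contact split both ways. Of 36 axon guidance genes, Sema5a, Sema3e, Slit2 and Ephb1 were counted as higher over the 4 replicates and Ntng2, Plxnd1, Epha3, Robo3 and Sema3a as lower, with a median of -0.09. Slit2, the ligand of robo receptors, stood at 174 to 228 CPM against 68.1 ± 15.0 CPM (1.53 ± 0.26). Of 38 synaptic adhesion genes, Cntnap4 (1.76 ± 0.27), Tenm3 (1.62 ± 0.28) and Cntnap5b (1.03 ± 0.75) were higher and Il1rapl2 (-1.26 ± 0.48) lower. None of 20 cadherin genes was counted as higher and Pcdh17 (-1.33 ± 0.09) as lower, and of 9 activity-regulated genes only Nptx2, at 3.77 ± 1.34 CPM, was counted, as lower. The mean of Nptx2 reached 10 CPM only in the others. Over all 6 replicates 1 guidance gene (Sema5a) was higher, 1 synaptic adhesion gene lower, and 1 cadherin gene higher and 1 lower. The shares of all genes were 3.1% higher and 2.06% lower over the 4 replicates and 1.1% and 1.71% over all 6.

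Markers of other cell types were summed for each list. The 12 GABAergic neuron markers summed to 1584 to 1619 CPM in aplCoA members and 129 to 1268 CPM in pplCoA members, against 390 to 412 CPM and 130.2 to 221 CPM in the others. Adarb2 alone gave 959 to 1340.3 CPM of this sum in the 4 larger replicates, and Slc32a1, the vesicular GABA transporter gene that defines GABAergic neurons, stood at 0.807 to 3.54 CPM in them and 0.481 to 2.26 CPM in the others of all 6. Gad1 and Gad2 were limited by the rule in both groups. Of 4 markers described over the 4 replicates, 1 was higher (Adarb2) and none lower, against 3.1% and 2.06% of all genes. Their median log2 ratio was 0.95, against 0.11 over all genes. Over all 6 replicates none of 5 was counted, with a median of 0.08. The 8 astrocyte markers summed to 276 to 439 CPM in members and 413 to 662 CPM in the others, the 7 oligodendrocyte markers to 60.3 to 126 and 79.2 to 115 CPM, the 7 microglia markers to 69.2 to 181 and 92.3 to 155 CPM, the 6 endothelial and mural markers to 0 to 8.88 and 4.25 to 6.76 CPM, the 7 vascular leptomeningeal markers to 14.0 to 58.9 and 21.1 to 37.5 CPM, and the 6 oligodendrocyte precursor markers to 945 to 1508 and 1020.5 to 1420.5 CPM. The part of these RNAs in the results was not tested.

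The members were set beside other glutamatergic groups, with no test. Nuclei rich in Meis1, Ebf1 and Pbx3 (1559 nuclei) had 517 CPM of Unc13c, 454 CPM of Tshz2, 364 CPM of Adarb2, 92.9 CPM of Zbtb7c, 50.7 CPM of Glra2 and 30.6 CPM of Prlr, pooled over replicates, against 577, 609, 1195, 279, 63.8 and 59.6 CPM in members. Sema5a stood at 183 CPM in them and at 212 CPM in members, pooled likewise, and Glra3 at 218 and 147 CPM. Vwa5b1 (5.33 CPM) and Glra1 (10.9 CPM) were low in them, which follows in part from the rule, since members were taken out of these groups. Baiap3 stood at 98.3 CPM in them, against 197 CPM in members and 28.5 CPM in all other glutamatergic nuclei. Slc17a6 was higher in the nuclei rich in Meis1, Ebf1 and Pbx3 than in members (215 CPM against 142 CPM). Nuclei rich in Chrdl1, Ccbe1 and Fign (1235 nuclei) had 79.7 CPM of Unc13c, 81.5 CPM of Tshz2, 128 CPM of Adarb2 and 1.02 CPM of Prlr, and nuclei rich in Smoc1, Cyp19a1 and Trhr (1944 nuclei) had 89.0, 136, 72.7 and 2.44 CPM. The 109 nuclei left out by the limit on Meis1 carried 693 CPM of Adarb2, 185 CPM of Zbtb7c, 70.0 CPM of Prlr and 722 CPM of Pbx3.

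The domains were then compared within the members, with counts summed per replicate and edgeR's quasi-likelihood test. Of 10479 genes seen in at least 10% of the members of a domain, 56 (0.534%) passed an adjusted p of 0.05, of which 26 (0.248%) were higher in aplCoA and 30 (0.286%) lower. A gene could enter this test through the domain where it was higher alone. Ebf1, Tmsb10 and Ndufa5 did so through aplCoA and Ano2 through pplCoA, and the counts hold such genes. Replicates did not overlap in 2262 genes (21.6%). At an unadjusted p under 0.05 there were 1107 genes. In the other glutamatergic nuclei, whose sums were far deeper, the same genes gave 1746 calls (16.7%), 886 (8.46%) higher and 860 (8.21%) lower in aplCoA, and replicates did not overlap in 38.5%. Of the 56 genes called in the members, 50 were called in the other glutamatergic nuclei too, all 50 in the same direction. These differences are thus mostly not particular to the members. The pplCoA side of the members rests on 84, 8 and 7 nuclei, and the values of the last 2 belong to nuclei that lay outside cluster 9.

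Ebf1, a helix-loop-helix transcription factor, showed the smallest p, but it entered the test only through its detection in aplCoA members. It stood at 62.0, 55.1 and 46.8 CPM in aplCoA members and at 5.02, 0 and 0 CPM in pplCoA members (log2 fold change 3.66 ± 0.44 SE, adjusted p = 9.7e-04). Without pplCoA replicates 2 and 3 the log2 fold change was 3.40 (adjusted p = 2.3e-05). Ebf1 was also higher in aplCoA in the other glutamatergic nuclei, at 109, 49.9 and 71.0 CPM against 14.8, 3.59 and 3.16 CPM.

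Hspa8, a heat shock cognate chaperone gene, stood at 170, 158 and 129 CPM against 47.7, 42.9 and 30.1 CPM (1.71 ± 0.23 SE, adjusted p = 0.0029). Tmsb10 (3.82 ± 0.66), Ndufa5 (2.36 ± 0.45), Rnasek (2.04 ± 0.41), Mif (1.84 ± 0.40), Cox5a (1.76 ± 0.38), Rpl3 (1.58 ± 0.31) and Gm42418 (1.58 ± 0.23), a transcript that overlaps ribosomal RNA sequence, passed as well, with Fign, a microtubule-severing protein gene (2.23 ± 0.49). In 22 of the 26 genes higher in aplCoA, pplCoA replicate 1 lay between the mean of aplCoA and that of pplCoA replicates 2 and 3. It was nearer to the mean of pplCoA replicates 2 and 3 in all 26. The median share of UMIs from ribosomal protein genes was 0.321% in aplCoA members and 0.220% in pplCoA members, and the median mitochondrial share 0.0223% and 0.0114%. The other glutamatergic nuclei differed likewise, at 0.267% and 0.208% and at 0.0171% and 0.00954%, and their part in these calls was not tested.

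Genes lower in aplCoA members had a higher mean in pplCoA replicates 2 and 3 than in pplCoA replicate 1 in all 30. Nfib, a factor of cortical and glial development, stood at 74.8, 118 and 68.6 CPM in aplCoA and at 198, 515 and 734 CPM in pplCoA (-2.35 ± 0.35 SE, adjusted p = 0.0042). Ano2, a calcium-activated chloride channel gene, stood at 14.2, 193 and 121 CPM in pplCoA and at 4.44 ± 1.42 CPM in aplCoA (-4.01 ± 0.79), and Trabd2b at 30.1, 279 and 332 CPM and 17.2 ± 11.5 CPM (-3.19 ± 0.71). Chst9 (-2.09 ± 0.38), Csgalnact1 (-1.96 ± 0.40) and Itga8 (-1.84 ± 0.37), genes of the cell surface and matrix, were lower too, as were the unnamed transcripts Gm34667, Gm34719, Gm45721 and Gm28750 (-2.11 to -3.44). In all 30 genes lower in aplCoA, pplCoA replicate 1 lay between the mean of aplCoA and that of pplCoA replicates 2 and 3. Unlike in the genes higher in aplCoA, it was nearer to the aplCoA mean in 27 of the 30. The size of these differences thus came in large part from the 15 members of pplCoA replicates 2 and 3. Without these replicates the log2 fold changes were smaller but of the same sign for Nfib (-1.28), Chst9 (-1.41), Itga8 (-1.21) and Gm34667 (-2.00). When pplCoA replicates 2 and 3 were left out, 48 genes passed, 35 of them among the 56, with the same direction in all 35, and the lone pplCoA replicate was assumed to vary like those of aplCoA.

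**Figure D5:**
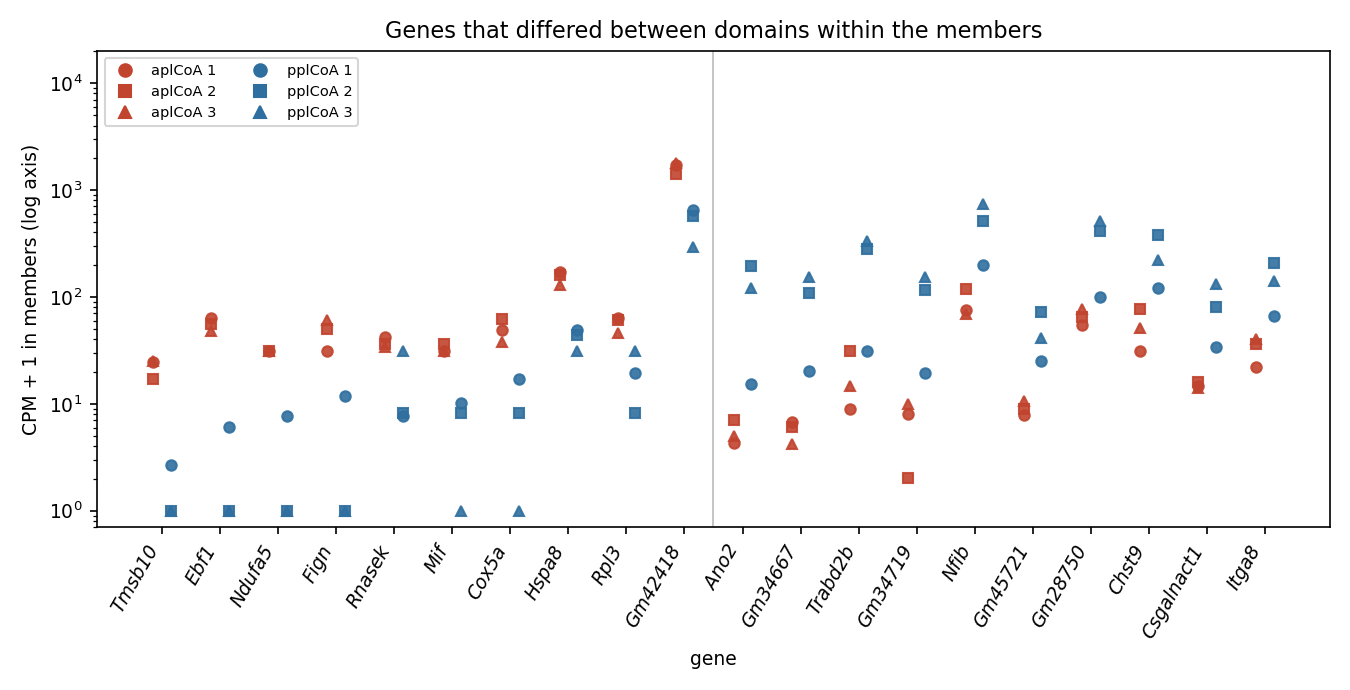
Level in the members of each replicate, in CPM + 1 on a log axis, for the 10 genes with the largest difference in each direction between aplCoA (red) and pplCoA (blue), shape by replicate number. Left of the line pplCoA replicate 1 lies below each aplCoA replicate, and right of it between the aplCoA replicates and the other pplCoA replicates for each of the 10 genes.

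Over all genes 0.534% were called between the domains in the members, so that a single call in a list of this size is not read as a result about the list. None of 34 potassium channel genes was higher in aplCoA and 1 lower (Kctd16), of 23 cortical factors 1 was lower (Nfib), of 12 subcortical factors 1 was higher (Ebf1), of 13 peptide genes 1 was higher (Scg2), of 21 cadherin genes 1 was lower (Cdh13), and among 18 peptide receptors, 21 glutamate receptors, 14 GABA-A receptors and 38 synaptic adhesion genes there was no call. Gulp1, which the rule did not use, gave no call within the members (log2 fold change 0.81, adjusted p = 0.45). Among the 20 genes named above, Hspa8 passed in 21 of 21 settings tried, Gm42418 in 20 of 21, Ebf1 in 19 of 20 and Nfib in 19 of 21, while Mif passed in 7 of 21 and Trabd2b in 8 of 21.

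Whether the domain difference itself differed between members and other glutamatergic nuclei was tested by an interaction term, with the replicate as a term. Of 10479 genes, 5 (0.0477%) passed, all with a lower aplCoA to pplCoA ratio in the members, and 530 had an unadjusted p under 0.05. They were Ano4, Rgs6, Nhs, Pbx3 and Slc17a6, the last of which is a gene of the rule, so that its values are a description. Pbx3 is tied to the rule as well, since the 109 nuclei that the limit on Meis1 left among the others carried 722 CPM of it, and 100 of these came from aplCoA. Slc17a6 stood at 142 ± 27.2 CPM in aplCoA and 52.3 ± 47.6 CPM in pplCoA members, and at 58.0 ± 7.31 and 12.3 ± 4.93 CPM in the others (SD, n = 3 each).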

How the data were processed

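Nuclei of aplCoA and pplCoA were sequenced with a droplet 3′ kit. The authors deposited raw counts of UMIs per gene and barcode, for 32285 genes in 7 libraries, made with Cell Ranger 5.0.0 on mm10 according to the submitters' processing notes. Groups came from the sample titles.

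The members, gene lists and rules for named genes were chosen with earlier results of these data known. Barcodes with at least 1000 genes (52201) were kept unless they exceeded 30000 UMIs (1086). No doublets were removed in the results given. An alternative left out the 4.20% to 10.9% of nuclei per library that Scrublet marked. The 2 libraries of aplCoA replicate 1 were summed. Counts of members and of the other glutamatergic nuclei were summed per replicate and scaled to CPM. Sums of members held 3677364, 997803, 1239300, 1194553, 139740 and 99506 UMIs, from aplCoA replicate 1 to pplCoA replicate 3, so that 3 UMIs were worth 0.816 to 30.1 CPM. Members and the other nuclei were compared by log2 ratios of CPM with 1 CPM added, for genes with a mean of at least 10 CPM in either, without a test.

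Domains were compared with the quasi-likelihood test of edgeR 4.0.16 in R 4.3.3, with TMM scaling and Benjamini-Hochberg adjustment over all genes seen in at least 10% of members of a domain. The interaction was fitted with replicate as a term. On simulated counts of the members, with 200 of 10479 genes changed, 73% of changes of 1 and 100% of changes of 2 on the log2 scale were recovered, and 7.59% and 2.44% of the calls were false. The changed genes were drawn from those with a mean count above the median, and every replicate was simulated from the same pooled profile. The differences between the pplCoA replicates were thus not simulated, and recovery in the data can be lower. Shares were compared by exact permutation. Clusters and neighbours came from Pearson residuals of 2995 variable genes, 50 components and 15 neighbours in scanpy 1.11.5. Named genes were the 15 highest and 8 lowest by mean log2 ratio among genes with the same direction in 6 of 6 replicates and at least 30 CPM, the 10 largest domain differences in each direction among genes whose replicates did not overlap and with at least 20 CPM, and the leading genes of each list. Genes highest in the 4 replicates with over 50 members were chosen after seeing the data. Replicate numbers were not used to pair samples. Alternatives covered the filters, the rule, scaling, DESeq2 1.42.0, each replicate left out and a replicate block. Values without pplCoA replicates 2 and 3, and the rule with a sum of 2 at 5000 UMIs, were added after seeing the data. A few genes of the lists are not reported here.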

Additional observations from a re-analysis of the deposited data

Results flagged for a closer look

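For 5 genes, of which Slc17a6 is a gene of the rule and Pbx3 is tied to it, the aplCoA to pplCoA difference was itself different in the members and in the other glutamatergic nuclei, by edgeR's quasi-likelihood test of the interaction. Ano4, a gene of the anoctamin family, had a log2 difference between the 2 comparisons of -1.854 ± 0.30 (SE, adjusted p = 0.031), with 67.3 ± 13.1 CPM in aplCoA and 266 ± 192 CPM in pplCoA members and 206 ± 37.3 and 179 ± 29.9 CPM in the others (SD, n = 3 each). Rgs6, a regulator of G-protein signalling, stood at -1.390 ± 0.23 (adjusted p = 0.031), with 477 ± 38.5 and 1671 ± 669.8 CPM in members and 1094 ± 136 and 1340.3 ± 85.9 CPM in the others. Without pplCoA replicates 2 and 3 its value was -0.66 and no longer passed (adjusted p = 0.18).

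Nhs stood at -1.042 ± 0.18 (adjusted p = 0.031), with 176 ± 29.3 and 103 ± 44.0 CPM in members and 63.5 ± 3.42 and 20.1 ± 4.75 CPM in the others. Pbx3, a homeodomain factor, stood at -1.396 ± 0.25, with 123 ± 21.5 and 50.3 ± 54.4 CPM in members and 159.8 ± 7.99 and 32.3 ± 13.8 CPM in the others. The value of Pbx3 is given as a description, since the limit on Meis1 left 109 nuclei with 722 CPM of Pbx3, 100 of them from aplCoA, among the others, and without that limit it was -1.04 (adjusted p = 0.42). Slc17a6 stood at -1.132, which is given as a description only, since its counts helped to choose the nuclei. Of 19 alternatives, Ano4 passed in 11, Nhs in 10, and Pbx3 and Rgs6 in 9 each. Without pplCoA replicate 1 the value of Pbx3 was -0.07 (adjusted p = 0.99) and that of Nhs -0.67 (adjusted p = 0.52), and without pplCoA replicate 3 Ano4 did not pass (-1.88, adjusted p = 0.11). Without pplCoA replicates 2 and 3, Ano4 and Nhs were among 11 genes that passed, in a fit that assumed the lone pplCoA replicate to vary like those of aplCoA.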

How the results depend on the processing

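The share of members was higher in aplCoA under each alternative, and its difference of 3.59 points became 0.981 with the rule applied at 5000 UMIs, 1.89 with a sum of 2 at 5000 UMIs, 1.05 as a share of all nuclei, and 3.03 to 4.35 with a replicate left out. The 56 genes that differed between domains in members became 95 with a UMI limit per library, 34 without doublets, 98 with a sum of 4, 101 with a sum of 2, 21 or 18 with only library 1 or 2 of aplCoA replicate 1, 290 with the likelihood ratio test, 225 without a filter, 9 among genes seen in 25%, and 6 at an adjusted p of 0.01 and 1.5-fold. They were 3 to 571 with a replicate left out, 571 of them without pplCoA replicate 1. DESeq2 called 52 genes, 6 higher and 46 lower in aplCoA, and shared 33 with the 56, while another scaling (RLE) gave 26 and 25. The 1746 genes of the other nuclei became 1029 among genes seen in 25%, 79 without pplCoA replicates 2 and 3, and 583 to 2221 with a replicate left out.

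The 5 interaction genes became 2 with a UMI limit per library, 3 with a mitochondrial and ribosomal limit, 25 with a sum of 4, 1 without the limit on Meis1, 32 with the likelihood ratio test, 11 without pplCoA replicates 2 and 3, and 0 to 116 with a replicate left out. By edgeR none passed with a sum of 2 (625 at an unadjusted p under 0.05), with library 1 alone (494), among genes seen in 25% (370), without aplCoA replicate 1 (337) or without aplCoA replicate 3 (423). Genes higher in members (104) became 65 with a prior of 5 CPM, 294 without pplCoA replicates 2 and 3, and 107 to 191 with a replicate left out. Genes lower in them (161) became 298 with a sum of 4, 55 with a sum of 2, 706 with the rule at 5000 UMIs, 74 with a prior of 5 CPM, 265 after thinning, and 169 to 201 with a replicate left out. With the rule at 5000 UMIs the log2 ratios of Rerg (-0.12), Adamts2 (-0.62), Adamts18 (-0.20), Gramd1c (-0.31) and Siae (-0.35) reversed. Under it aplCoA replicate 2 held 1 member and pplCoA replicate 2 held 2. Each of the genes was still higher in 3 of the 5 replicates with members, with SDs of 2.54 to 3.65. With the members of the main rule thinned to 5000 UMIs, the ratios were 2.44, 1.76, 1.41, 1.19 and 0.05 in the same order. Over all 6 replicates Kcnip1 (0.74) and Gulp1 (0.42) were within their spread, and they fell below 0 with the rule at 5000 UMIs (Kcnip1, -0.42) and without pplCoA replicate 1 (Gulp1, -0.08). The cause was not tested. The neighbour share of 29.9% ranged from 24.6% to 35.3% with a replicate left out.

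Deviations from the domain mean correlated at 0.127, 0.036 and 0.015 between same-numbered replicates of members. Between replicates of different numbers the correlations ran from -0.067 to 0.017. In the other glutamatergic nuclei same-numbered replicates gave 0.030, -0.085 and 0.114, and different numbers -0.2035 to 0.181. With 3 replicates per domain, and 8 and 7 members in pplCoA replicates 2 and 3, these values cannot decide whether the numbers pair the samples. With a replicate block the share difference was 3.59 points (exact permutation p = 0.25), 129 genes passed in members, and none of the interaction (488 at an unadjusted p under 0.05). Domain tests with the rule at 5000 UMIs were not run, as pplCoA replicate 3 held no member. In the smallest replicates 1 UMI is worth 7.16 and 10.0 CPM, which limits what a value of 0 shows there.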
